A study of Mus musculus with 2 samples.

Results

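Messenger RNAs of the proteasome and the immunoproteasome were compared between 2 fractions of vesicles released by murine cytotoxic T lymphocytes (CTL), which destroy virus-infected cells and tumours. Members were the genes whose symbol on the array begins with Psm, a letter from a to g and a digit. The pattern matched 49 of 19316 named genes (53 of 23473 probes). It also caught Psmc3ip, a meiotic recombination factor, and Psme3ip1, which binds the product of Psme3. Neither is a proteasome gene, so both were set apart, which left 47 genes with 51 probes. Psmc3ip read 102 at 0.5 M and 97 at 0.3 M, and Psme3ip1 read 242 at 0.5 M and 217 at 0.3 M. The 0.5 M fraction left a positively charged DEAE column at 0.5 M NaCl, and the 0.3 M fraction at 0.3 M NaCl. Both came from CTL medium collected on day 7 of culture, concentrated and freed of protein on a 750 kDa ultrafilter. Particles with more negative charge need more salt to leave such a column, and the comparison asks whether vesicles that differ in this way carry different RNA. Each fraction has 1 array, so no p-value, standard deviation or test between fractions can be had. Nothing in the sources used here gives the strain or age of the mice, how the T cells were stimulated or how many preparations were pooled.

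The proteasome is the main protease of the cytosol and nucleus. Its core particle is a barrel of alpha rings, which gate entry, around beta rings, which cut. The regulatory particle caps the barrel, binds ubiquitin-tagged proteins, unfolds them with a ring of ATPases and feeds them in. Interferon-gamma and activation of lymphocytes induce the immunoproteasome, in which Psmb8, Psmb9 and Psmb10 replace the active subunits Psmb5, Psmb6 and Psmb7 and the activator formed by Psme1 and Psme2 can take the place of the cap. This form is known for making peptides that MHC class I presents to CTL, and T cells themselves contain it.

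Promoters are shown for 2 of the 3 exchanged pairs, Psmb9 with Psmb6 and Psmb8 with Psmb5, because these subunits are compared below. None is printed for the third pair, Psmb10 with Psmb7. RefSeq sequences (GRCm38.p6) were found for 39 of the 47 genes, as 41 promoters. The 250 bases before the start site were searched on both strands for TGACNNNGC, the core of the antioxidant response element through which Nfe2l1 acts, the core of the interferon response element (GAAA, any 2 bases and GAAA again) and CCAAT. Capitals mark these matches, which did not overlap each other. For Psmb6 only 30 bases around its match are shown.
Psmb9, GRCm38.p6 chr17:34187331-34187580, minus strand: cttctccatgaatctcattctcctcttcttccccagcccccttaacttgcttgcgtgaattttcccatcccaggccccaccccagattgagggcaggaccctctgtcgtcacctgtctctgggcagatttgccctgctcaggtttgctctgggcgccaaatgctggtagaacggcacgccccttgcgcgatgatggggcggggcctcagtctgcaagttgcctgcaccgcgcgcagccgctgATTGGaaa
Psmb8, GRCm38.p6 chr17:34197945-34198194, plus strand: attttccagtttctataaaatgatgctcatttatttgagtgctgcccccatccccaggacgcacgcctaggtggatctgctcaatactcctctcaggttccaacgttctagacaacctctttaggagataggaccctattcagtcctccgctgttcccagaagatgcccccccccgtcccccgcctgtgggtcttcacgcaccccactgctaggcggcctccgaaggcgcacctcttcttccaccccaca
Psmb5, GRCm38.p6 chr14:54617996-54618245, minus strand: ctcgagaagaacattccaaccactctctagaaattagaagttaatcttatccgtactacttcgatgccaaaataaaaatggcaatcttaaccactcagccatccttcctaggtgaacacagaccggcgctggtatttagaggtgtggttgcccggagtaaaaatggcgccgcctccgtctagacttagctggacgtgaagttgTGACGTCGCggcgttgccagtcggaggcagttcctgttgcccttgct
Psmb6, GRCm38.p6 chr11:70525327-70525356, plus strand: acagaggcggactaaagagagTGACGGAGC
Psmb5 held TGACGTCGC, whose first base lies at -47, and Psmb6 held TGACGGAGC at -9, where -1 is the base before the start site. Psmb9 held the reverse of CCAAT at -8, and Psmb8 and Psmb10 held none of these motifs in this window. TGACNNNGC was in 5 of the 41 proteasome promoters (12.2%), against 10.2% of all 32851 promoters of the whole table. The interferon response core was in 3 (7.32%), against 2.98%, and in 0 of the 4 immunoproteasome promoters. CCAAT was in 7 of 13 promoters of core alpha and beta genes (53.8%) and in 4 of 15 of the regulatory particle (26.7%), against 33.8% of all promoters. Both sets are incomplete. Psma8, Psmb1, Psmb2 and Psmb7 of the core had no promoter, nor had Psmc3, Psmd3 and Psmd7 of the regulatory particle. Psma6 and Psmc2 each entered with more than 1 promoter, and Psmb11, not measured in both fractions, was among the matches. A match of letters is a description and does not show that a factor binds.

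Of the 47 genes, 45 had a value on both arrays and 39 passed the filter on dim genes, which asked a gene to reach the array's median over measured genes in one fraction or the other (an intensity of 26.1 at 0.5 M or about 32 at 0.3 M). Psma8, an alpha subunit of the testis, and Psmb11, a beta subunit of the thymus, were empty at 0.5 M and read 6 and 5 at 0.3 M. Psma3, Psmc4, Psmd6, Psmd9, Psmd10 and Psmd12 were measured but too dim, with intensities between 9 and 22 at 0.5 M and between 12 and 27 at 0.3 M. Near the filter, Psmc4 (22 at 0.5 M and 27 at 0.3 M) lay just outside and Psmd3 (probe means of 35.5 at 0.5 M and 39 at 0.3 M) just inside. Psmg3 (38 at 0.5 M and 25 at 0.3 M) passed through the 0.5 M array alone. Psme2 and the core assembly chaperone Psmg4 had no probe under those symbols and were not analysed here. Psme2b, a close copy of Psme2 by its RefSeq synonyms, had a probe, and whether that probe also binds Psme2 RNA was not tested. Intensities of the 39 kept genes ran between 29 and 2908 at 0.5 M and between 25 and 2293 at 0.3 M. Over the 39 genes the log2 intensities of both arrays correlated at r = 0.98, a description over genes that share the same arrays.

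**Figure D1:**
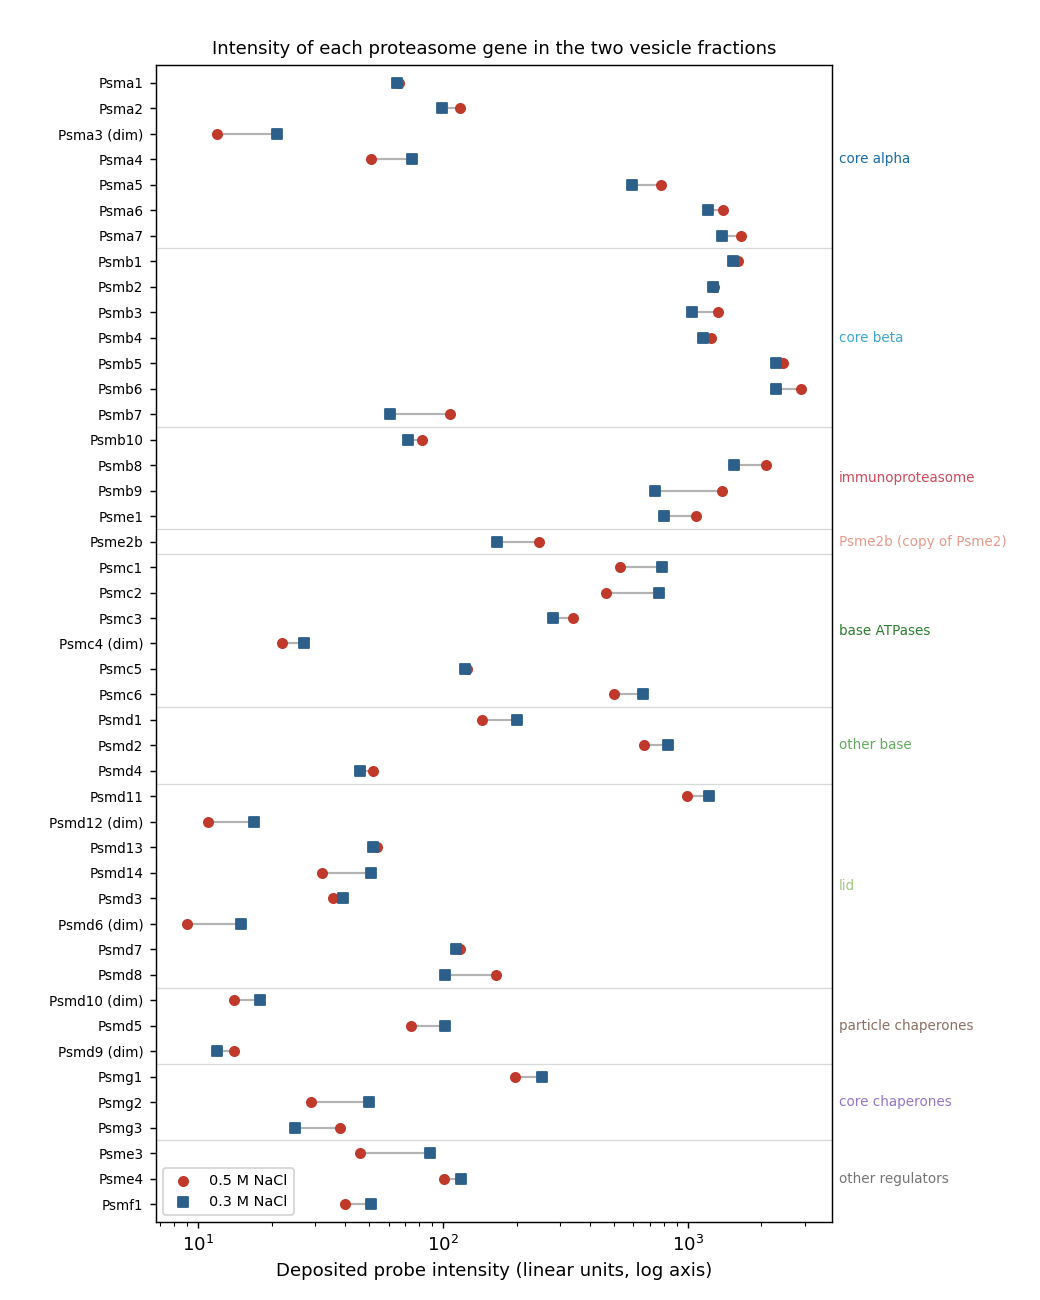
Deposited intensity (log axis) of the 45 proteasome genes with a value on both arrays, one row per gene, with circles for 0.5 M and squares for 0.3 M. "Dim" marks the 6 genes that did not pass the filter. Core beta and immunoproteasome genes have the circle to the right of the square, whereas Psmc1, Psmc2 and Psmc6 have it to the left. Rows compare fractions for one gene, since probes of different genes are not on one scale.

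Differences below are log2 values at 0.5 M minus 0.3 M after each array was centred on its median over shared probes, which took out a shift of -0.30 between the arrays. Over all probes with a value (16732 at 0.5 M and 18969 at 0.3 M) the deposited medians were level, at 25 on both arrays, and the shift appears only over the probes they share. A gene with equal intensities in both fractions thus has a difference of 0.30. The median difference of the 39 proteasome genes was 0.36, against 0.08 for all 7446 kept genes. As deposited the members' median was 0.06, with -0.22 for all kept genes. Quantile normalization gave 0.16 for the members and loess 0.18, both beside 0.00 for all kept genes. Above 0 were 27 of 39, or 69.2%, against 55.9% of all kept genes. Among the 27 is Psmg3, which passed the filter only through the 0.5 M array. With the values as deposited 24 of 39 were above 0, against 34.4% of all kept genes. With loess it was 24, against 50.1%, and with quantile normalization 23, against 50%. At least 2-fold higher at 0.5 M were 2, Psmb9 and Psmb7, against 5.24% of all kept genes, and at least 2-fold lower were 0, against 2.35%. The number past 2-fold is thus near the background and is no result about the proteasome. In bulk vesicle RNA, more vesicles that carry a transcript and more copies per vesicle cannot be told apart.

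The error of a single difference could be taken only from genes with several probes. Over 358 such kept genes the SD between probes of one gene was 0.55, close to the SD of 0.56 over all kept genes. It leaves out variation between vesicle preparations. Among the proteasome genes, 2 had 2 probes on both arrays. Those of Psme1 gave 0.75 and 0.71, and those of Psmd3 gave 0.39 and 0.00. Rounding of the deposited intensities to whole numbers adds at most 0.048 either way to a kept gene with 1 probe. A second probe of Psmd5 (8) and of Psmd8 (14) had a value at 0.3 M alone.

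Differences also grew with intensity. Sorted by mean level into 10 bins of equal size, the kept genes had a median difference of -0.04 in the lowest bin and 0.46 in the highest. Of the 39 proteasome genes, 17 were in the highest bin, so each gene is also set against the median of its own level bin. Above it lay 22 of 39 (56.4%), against 49.7% of all kept genes, a share near the background.

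The immunoproteasome genes were higher at 0.5 M, all 4 of them above 0 and above the median of their level bin, with a median difference of 0.73. That compares with 0.41 for the core beta genes and 0.08 for all kept genes. Of all kept genes 55.9% were above 0 (71% in the highest bin) and 49.7% above the median of their level bin. Psmb9, which replaces Psmb6, had 1374 at 0.5 M against 733 at 0.3 M. Its difference of 1.21 (2.31-fold) was the largest of the 39 and stood above 97.6% of all kept genes and above 94.8% of those in its level bin. With loess and as deposited it was 0.91, short of 2-fold. Psmb8, the exchange partner of Psmb5, read 2090 at 0.5 M and 1542 at 0.3 M. Its difference of 0.74 stood above 68.1% of the genes in its level bin. Psmb10, which replaces Psmb7, read 82 at 0.5 M and 72 at 0.3 M, a difference of 0.49, above 79.2% of its level bin. Thus all 3 inducible catalytic subunits were higher at 0.5 M, Psmb10 least. Psme1, a subunit of the activator, had 1704 and 464 on its 2 probes at 0.5 M, against 1243 and 350 at 0.3 M. Its mean difference of 0.73 stood above 67.1% of the genes in its level bin. The Psme2b probe read 246 at 0.5 M and 166 at 0.3 M, a difference of 0.87. Counting it as Psme2, a choice made after its value was seen, left the median of the immunoproteasome at 0.74.

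The beta subunits that the immunoproteasome does not add were all above 0, with 7 of 7 kept and a median of 0.41, though only 3 lay above the median of their level bin. Among all kept genes 55.9% were above 0, and 71% of those in the highest bin. Above 0 were 6 of 7 with loess and 5 with quantile normalization, against 50.1% and 50% of all kept genes. Psmb7, the trypsin-like active subunit, read 107 at 0.5 M against 61 at 0.3 M, a difference of 1.11 (2.16-fold), which was 1.05 with loess and 0.81 as deposited. Psmb6, the caspase-like subunit, read 2908 at 0.5 M against 2286 at 0.3 M (0.65). Psmb5, the chymotrypsin-like subunit and target of bortezomib, read 2453 at 0.5 M against 2293 at 0.3 M (0.40). The structural subunits Psmb1, Psmb2, Psmb3 and Psmb4 ran between 1248 and 1600 at 0.5 M and between 1044 and 1534 at 0.3 M. Their differences were 0.36, 0.31, 0.65 and 0.41. Psmb7 thus stood apart from its class, and the other 6 lay between 0.31 and 0.65.

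Set pair by pair, the exchanged subunits did not differ in one direction. These gaps do not depend on the centring. Psmb9 exceeded Psmb6 by 0.56 and Psmb8 exceeded Psmb5 by 0.34. Psmb10 went the other way, and its gap to Psmb7 was -0.62. With the loess trend on intensity removed the gaps were 0.64, 0.37 and -0.62. The gap between the class medians was 0.32, over 4 and 7 genes. None of these gaps is large beside the SD of 0.55 between probes of one gene. No error between preparations could be set on them.

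The alpha subunits had a median of 0.52 over 6 kept genes, with 5 above 0 and the same number above the median of their level bin. The shares of all kept genes were 55.9% and 49.7%. Psma5 read 775 at 0.5 M against 594 at 0.3 M (0.68). Psma7 read 1648 at 0.5 M against 1379 at 0.3 M (0.56). Psma2 read 117 at 0.5 M against 99 at 0.3 M (0.54), and Psma6 had 1388 at 0.5 M against 1214 at 0.3 M (0.49). Psma1 was at 0.32. Psma4, named after its value was seen, was the exception with 51 at 0.5 M and 75 at 0.3 M (-0.26). The dim Psma3 read 12 at 0.5 M and 21 at 0.3 M.

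**Figure D2:**
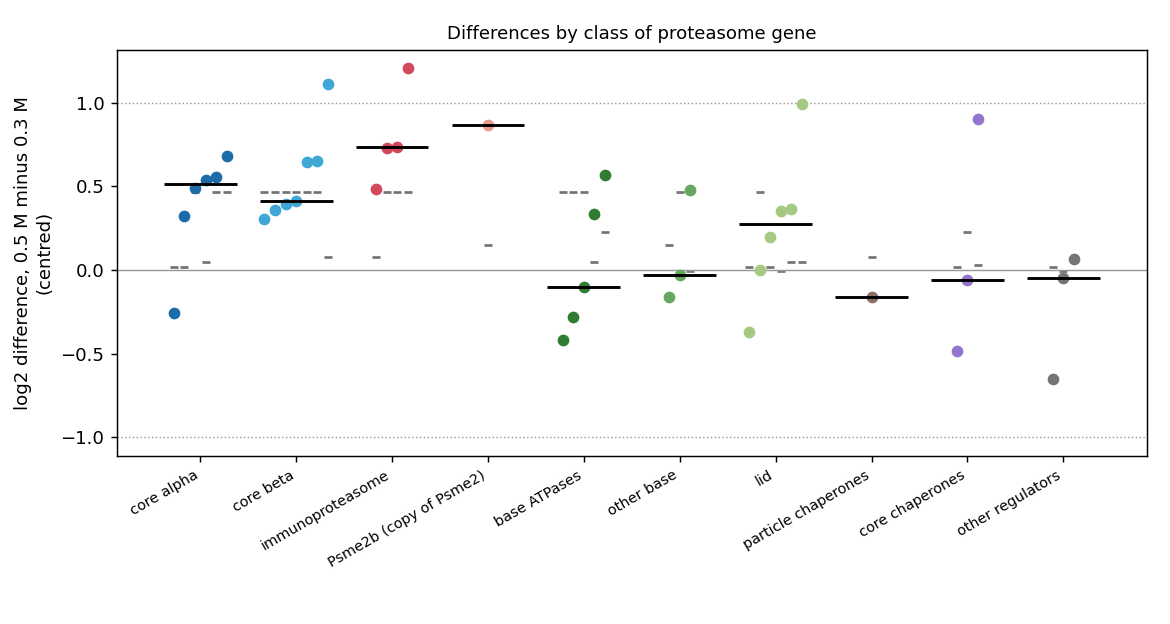
Log2 difference (0.5 M minus 0.3 M, centred) of the 39 kept proteasome genes by class. Each circle is a gene, long bars are class medians, short grey marks are the median of all kept genes in that gene's level bin, and dotted lines mark 2-fold. Immunoproteasome genes lie between 0.49 and 1.21 and the base ATPases between -0.42 and 0.57.

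The regulatory particle was near the median of all genes, with a median difference of 0.10 over 14 kept subunits of 17. The 17 leave out the lid subunit Sem1 (1.02), whose symbol lies outside the pattern. Above 0 were 8 and below 0 were 6, beside 55.9% of all kept genes above 0. Above the median of their level bin lay 7 of the 14, against 49.7% of all kept genes. The median was -0.20 with the values as deposited, -0.06 with quantile normalization and with loess, and -0.02 with a stricter filter, so it has no settled sign. Its ATPases, which unfold substrates and open the gate, went both ways. Psmc2 had 462 at 0.5 M against 761 at 0.3 M (-0.42) and Psmc1 had 527 at 0.5 M against 788 at 0.3 M (-0.28). Psmc3, in contrast, had 339 at 0.5 M against 281 at 0.3 M (0.57) and Psmc5 had 126 at 0.5 M against 123 at 0.3 M (0.33). Psmc6 was also below 0, with 498 at 0.5 M against 658 at 0.3 M (-0.10).

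The other base subunits also went both ways. Among them the scaffold Psmd1 read 145 at 0.5 M against 200 at 0.3 M (-0.16), and Psmd2, the other scaffold, read 660 at 0.5 M against 831 at 0.3 M (-0.03). Psmd4, a ubiquitin receptor, read 52 at 0.5 M against 46 at 0.3 M (0.48). In the lid, which strips ubiquitin from substrates, 5 of 6 kept genes were above 0 (55.9% of all kept genes) with a median of 0.28. The sign was not settled, since as deposited the median was -0.02 with 3 of 6 above 0, and 4 of 6 were above 0 with loess and with quantile normalization. Psmd8 read 165 at 0.5 M against 102 at 0.3 M (0.99), just short of 2-fold. Psmd7, the partner of the deubiquitinase, read 118 at 0.5 M against 113 at 0.3 M (0.36) and Psmd13, another lid subunit, 54 at 0.5 M against 52 at 0.3 M (0.35). The mean of both Psmd3 probes was 0.20. Psmd14, the deubiquitinase itself, read 32 at 0.5 M against 51 at 0.3 M (-0.37), and Psmd11 had 994 at 0.5 M against 1222 at 0.3 M (0.00). Among the 14 kept members of the regulatory particle, the lid thus held both the largest difference and a subunit lower at 0.5 M. Sem1, a lid subunit outside the pattern, was at 1.02.

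Core and cap members separated in the highest level bin, a split picked out after the values were seen and limited to symbols that match the pattern. That bin held 12 core and immunoproteasome genes, with differences between 0.31 and 1.21 and a median of 0.60. It held 5 regulatory particle members, Psmc1, Psmc2, Psmc6, Psmd2 and Psmd11, with differences between -0.42 and 0.00 and a median of -0.10. The ranges of these members did not overlap. The lid subunit Sem1, outside the pattern, is as bright (866 at 0.5 M against 524 at 0.3 M). Its difference of 1.02 (0.76 with loess) fell inside the core range, so the split does not hold for the whole cap. Of all 745 genes in that bin, 71% were above 0. The 5 regulatory particle genes stood above 17.6% to 29.1% of those genes, and the 12 others above 41.9% to 94.8%. Without Sem1 the ranges stayed apart with quantile normalization (-0.08 to 0.89 against -0.63 to -0.29) and with loess (-0.01 to 0.91 against -0.67 to -0.30). The same held with a pseudocount (0.20 to 1.08 against -0.51 to -0.10). In dimmer bins no such split was seen, since Psmc3, Psmd8 and Psmd4 lay among the higher genes and Psma4 below 0. Without replicate arrays the size of this split cannot be set against variation between preparations.

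**Figure D3:**
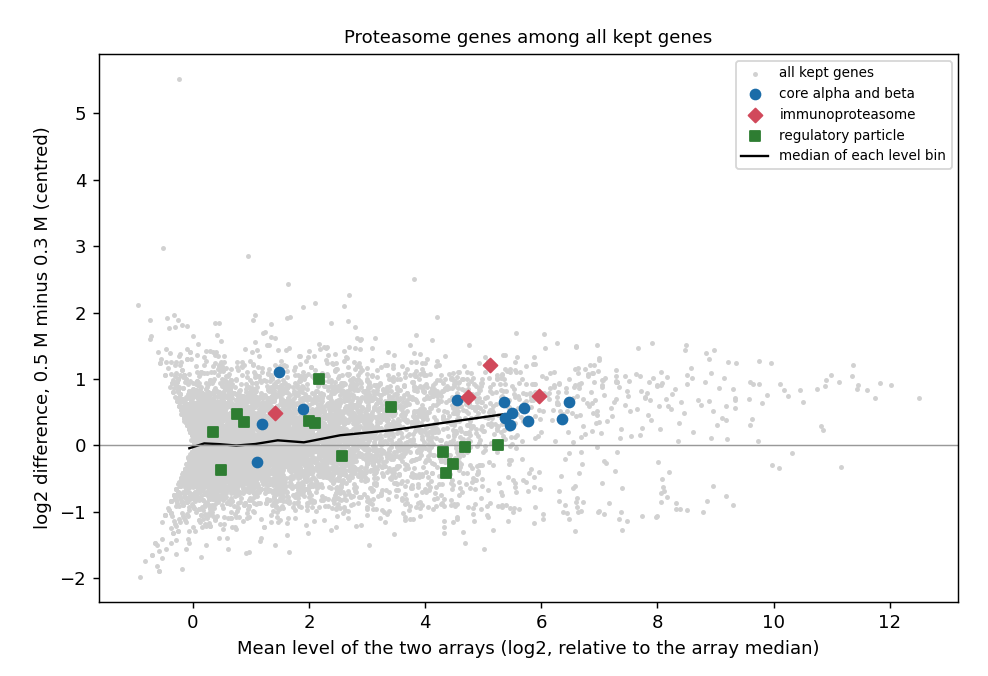
Log2 difference (0.5 M minus 0.3 M, centred) against mean level of both arrays for the 7446 kept genes (grey). Core genes are circles, immunoproteasome genes diamonds and regulatory particle genes squares, and the black line joins the medians of the 10 level bins, from -0.04 to 0.46. At the right, the 12 core and immunoproteasome genes of the highest bin lie above its 5 regulatory particle members. The lid subunit Sem1, outside the symbol pattern, is not marked.

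Factors that build or regulate the proteasome mostly lay near or below 0. Psmg1, an assembly chaperone of the alpha ring, read 197 at 0.5 M against 253 at 0.3 M (-0.06). Its dimer partner Psmg2 read 29 at 0.5 M against 50 at 0.3 M (-0.49). Psmg3, of the other chaperone dimer, read 38 at 0.5 M against 25 at 0.3 M (0.90, and 0.59 with a pseudocount of 16). This dim gene passed the filter only through the 0.5 M array, where it was higher, so its difference is no result. Psmd5, which helps assemble the base, read 74 at 0.5 M against 102 at 0.3 M (-0.16). Psme3 forms a nuclear activator that does not need ubiquitin, and its difference was the lowest of the 39 at -0.65, with 46 at 0.5 M against 89 at 0.3 M. It stood above 8.74% of all kept genes. Psme1, of the same protein family, was 1.38 above Psme3 with centring and 1.17 with loess. Psme1 is far brighter, and with each set against its level bin the gap was 0.94. Psme4, an activator with roles in chromatin, read 101 at 0.5 M against 119 at 0.3 M (0.06) and Psmf1, which binds the core, 40 at 0.5 M against 51 at 0.3 M (-0.05).

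Other genes of the pathway gave few large differences. Of 11 factors bound to the proteasome or needed to build it, 6 were kept, with a median of 0.12. Above 0 were 3 and below it 3, beside 55.9% of all kept genes above 0. Sem1, the smallest lid subunit, read 866 at 0.5 M against 524 at 0.3 M (1.02), the only one past 2-fold, though with loess it was at 0.76. Txnl1, a thioredoxin of the regulatory particle, read 29 at 0.5 M against 26 at 0.3 M (0.46). Zfand5, which stimulates degradation, read 20 at 0.5 M against 33 at 0.3 M (-0.42). Both are dim and passed the filter only through the fraction where they were higher, so their differences are no result. Of 7 genes that control proteasome genes, 4 were kept and lay above 0 with centring, against 55.9% of all kept genes. The number was 3 with loess and 1 as deposited, against 50.1% and 34.4% of all kept genes. Irf1, an interferon-induced activator of Psmb9, read 228 at 0.5 M against 207 at 0.3 M (0.44). Nfe2l1, the factor that raises proteasome genes when the proteasome is inhibited, was at 0.18 and Ngly1, which processes it, at 0.14.

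Of 13 ubiquitin and shuttle genes, 6 were kept with a median of 0.04, 3 on each side of 0. Among all kept genes 55.9% were above 0. The shuttle Rad23b read 142 at 0.5 M against 272 at 0.3 M (-0.64), against 0.55 for the shuttle Ubqln2 and 0.40 for Ufd1. Of 7 genes that load peptides onto class I, 3 were kept, all above 0 with centring and with loess and 2 above it as deposited. The shares of all kept genes above 0 were 55.9%, 50.1% and 34.4% in these settings. Too dim to be kept, Tap2 was at -0.21, Pdia3 at -0.12 and Erap1 at 0.14. B2m, the light chain of class I, read 494 at 0.5 M against 418 at 0.3 M (0.54) and the loading factor Tapbp 43 at 0.5 M against 37 at 0.3 M (0.52). Tap1, a peptide transporter whose gene neighbours Psmb9, read 28 at 0.5 M and 31 at 0.3 M (0.15), against 1.21 for that neighbour. Tap1 is dim and passed the filter through the 0.5 M array alone.

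Markers of CTL were present in both fractions. Cd8a read 2463 at 0.5 M and 3677 at 0.3 M, and Gzmb 2838 at 0.5 M and 2493 at 0.3 M. Cd3e was dim, at 14 at 0.5 M and 12 at 0.3 M. Cd3g and Cd8b1, which encode further chains of the T cell receptor complex and its co-receptor, were higher at 0.5 M by more than the immunoproteasome median of 0.73. Cd3g read 162 at 0.5 M against 105 at 0.3 M (0.93, and 0.82 with loess), and Cd8b1 read 496 at 0.5 M against 333 at 0.3 M (0.87, and 0.67 with loess). Prf1 was at -0.04 and Cd8a at -0.28, and the median of the 5 kept CTL markers was 0.49. Summed over the 6 markers the intensity was 5999 at 0.5 M and 6653 at 0.3 M, where Cd8a alone is lower by more than the sum. B cells and antigen-presenting cells also make the immunoproteasome, and some of their markers moved with it. The 5 macrophage, dendritic cell and class II markers summed to 1127 at 0.5 M against 303 at 0.3 M. Nearly all of that sum came from the class II genes H2-Aa (863 at 0.5 M against 188 at 0.3 M) and Cd74 (188 at 0.5 M against 43 at 0.3 M), both past 2-fold. H2-Ab1 read 15 at 0.5 M and 13 at 0.3 M, the dendritic cell gene Itgax 11 at 0.5 M and 10 at 0.3 M, and the macrophage gene Csf1r 50 at 0.5 M and 49 at 0.3 M. The 3 B cell markers with a probe, of 4, summed to 360 at 0.5 M against 130 at 0.3 M, nearly all of it Cd79b (328 at 0.5 M against 94 at 0.3 M). The defining B cell gene Cd79a read 11 at 0.5 M and 15 at 0.3 M, and Ms4a1 read 21 in both. Red cell markers summed to 7896 at 0.5 M and 17115 at 0.3 M, and fibroblast markers to 54 at 0.5 M and 49 at 0.3 M. The part of these genes or of other cells in the difference of the immunoproteasome genes was not tested.

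The order of the classes was the same with centring and in the 6 alternatives that do not move every gene alike. The other 2, the values as deposited and centring on kept genes, cannot change it. Among the 6, no filter and the stricter filter left the medians of the immunoproteasome (0.73) and of beta subunits (0.41) as they were. The brightest probe left those of alpha (0.52) and beta subunits as they were. These settings thus try the order only in part. The median was highest for the immunoproteasome, then for alpha, then for beta subunits and lowest for the regulatory particle. With each gene set against its level bin the medians were 0.34, 0.155, -0.05 and -0.07 in that order. Beta subunits and the regulatory particle were then nearly level. The lid alone was at 0.25 on that measure, above alpha and beta subunits, and with loess (0.22) it lay above beta subunits (0.11). The immunoproteasome median ran between 0.43 and 0.75 over the alternatives, that of alpha subunits between 0.22 and 0.55 and that of beta subunits between 0.05 and 0.41. These settings reuse the same 2 arrays, so their order says nothing of other preparations.

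**Figure D4:**
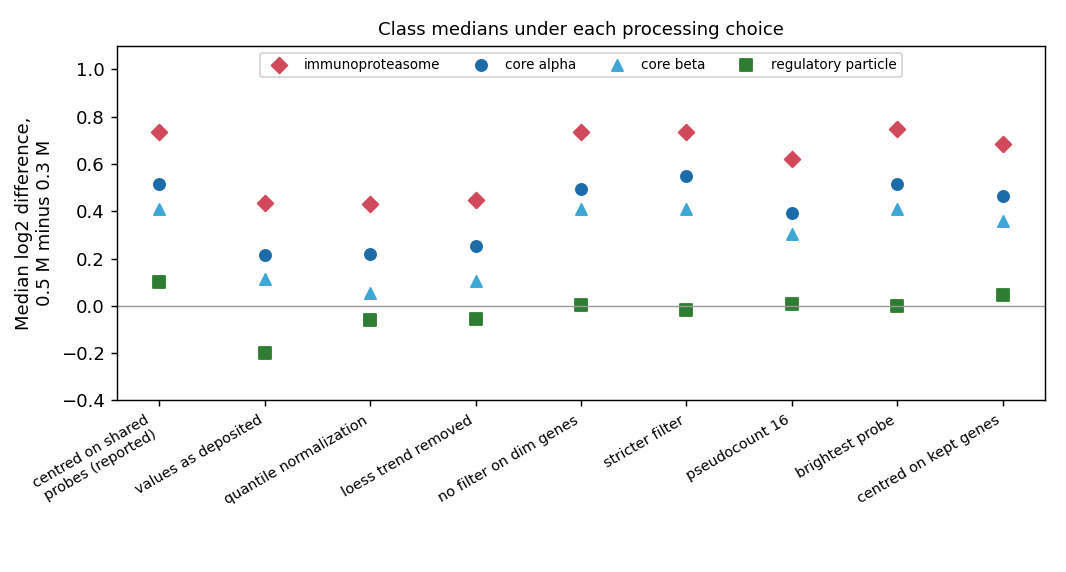
Median log2 difference (0.5 M minus 0.3 M) of each class in 9 settings, with diamonds for the immunoproteasome, circles for alpha, triangles for beta subunits and squares for the regulatory particle. The immunoproteasome is highest throughout, and the regulatory particle lies between -0.20 and 0.10.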

How the data were processed

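Total RNA of each vesicle fraction was amplified as aRNA and coupled to the dye Cy5 (amino allyl method), per the labels' protocols. The authors deposited linear probe intensities as whole numbers. How these were scanned, background-corrected and normalized, and why cells are empty, is not given in the sources used here. Median intensity over the 16154 probes on both arrays was 26 at 0.5 M and 32 at 0.3 M. The single array per fraction limits the precision.

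Symbols were updated through Entrez identifiers for 20556 probes and accessions for 9, 125 kept the symbol of the array and 2783 had none, with 0 carrying several. Intensities were log2-transformed with empty cells left out, each array was centred on its median over shared probes, and probes of one gene were averaged. No group was tested. Calculations ran in Python 3.11.15 with numpy 2.4.6 and pandas 2.3.3, and were checked on simulated data. Alternatives were no centring, quantile normalization, a loess trend (span 0.3), no or a stricter filter (75th percentile), a pseudocount of 16, the brightest probe and centring on kept genes.

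Both intensities were to be given for immunoproteasome and active-site subunits and for the 4 genes of each other class with the largest difference, with up to 3 kept genes of each pathway list. Members, lists and this rule were chosen with earlier results of these data known.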

Additional observations from a re-analysis of the deposited data

How the results depend on the processing

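The alternatives gave 82 values of class medians, gaps between medians and counts of members. Of these 57 kept their sign and stayed within 1.5 times of the reported value, and 25 did not. Past 2-fold higher were 2 members with centring, 0 as deposited, and 1 with quantile normalization, with loess and with the pseudocount. The median of all kept members, 0.36, was 0.061 as deposited, 0.16 with quantile normalization and 0.18 with loess. In the same order, that of alpha subunits, 0.52, was 0.22, 0.22 and 0.25, that of beta subunits, 0.41, was 0.11, 0.053 and 0.11, and that of the immunoproteasome, 0.73, was 0.43, 0.43 and 0.45. The core exceeded the regulatory particle by 0.39, and by 0.22 with quantile normalization. With each gene set against its level bin, the medians were 0.09 for the core and -0.07 for the regulatory particle. The median of the regulatory particle, 0.10, was -0.20 as deposited, -0.061 with quantile normalization, -0.057 with loess and -0.016 with the stricter filter. It was 0.0016 with no filter, 0.0065 with the pseudocount, 0.00080 with the brightest probe and 0.047 with centring on kept genes. The shift follows from the construction of the deposited setting, and elsewhere the cause was not tested. As deposited, the median of all kept genes was -0.22. No paired analysis was possible because each fraction has 1 array, which also leaves no replicate to omit. Of the 51 member probes, 4 were empty at 0.5 M and 0 at 0.3 M, so Psma8 and Psmb11 could not be compared.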
